A study of Mus musculus with 9 samples.

Results

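The precursor genes of microRNAs that are abundant in retina and neurons were followed in the mouse retina after intravitreal injection of an antibody to complement component 5 (C5). The genes were Mir183, Mir96 and Mir182 (the sensory organ cluster), Mir204 and Mir211, Mir128-1 and Mir128-2, and Mir181a-1 and Mir181a-2. Members were the probe sets whose annotation names only 1 of these 9 genes. A probe set is the group of array probes that is summarised into 1 value. Each gene had 1 such probe set, which gave 9 members of 22180 genes with a probe set of their own. The annotation holds 478 microRNA precursor genes of that kind, 469 of them outside the 9.

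All mice were male C57BL/6 animals (C57BL/6J in the methods), 6 weeks old at purchase, and each array held RNA pooled from 4 retinas of 4 mice, taken 7 days after an intravitreal injection of 1 μL. The groups were control eyes, eyes given 1 μg of anti-C5 antibody and eyes given 10 μg of anti-C5 antibody, with 3 arrays each and no lesion made beforehand. The labels name PBS as the control injection, and the methods name an isotype IgG1, so which of them the control arrays hold was not settled here. The antibody binds the MG4 domain of the C5 β chain, and the arrays were run to look for effects of the antibody on the normal retina.

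A microRNA gene is transcribed as a long primary RNA, from which the enzymes Drosha and Dicer cut first a hairpin and then a mature strand of a little over 20 bases. The mature strand guides Argonaute proteins to messenger RNAs, mainly by pairing of its seed, bases 2 to 8 from the 5′ end. In the retina the Mir183, Mir96 and Mir182 cluster is strongly used by photoreceptors, Mir204 and Mir211 are strongly used by the pigment epithelium, Mir128 is typical of neurons, and Mir181a is found in inner retinal neurons. The arrays were made from random-primed total RNA, so a member's value reflects precursor or host transcript, and mature strands were not measured separately.

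The main mature strand of each member is shown because it groups the members into families. The sequences are those of RefSeq for build GRCm38.p6, with the seed in capitals.
miR-183-5p: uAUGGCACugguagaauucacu
miR-96-5p: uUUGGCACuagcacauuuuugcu
miR-182-5p: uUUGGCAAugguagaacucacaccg
miR-204-5p: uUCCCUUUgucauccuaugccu
miR-211-5p: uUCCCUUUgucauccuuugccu
miR-128-3p, from Mir128-1 and Mir128-2: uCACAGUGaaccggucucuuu
miR-181a-5p, from Mir181a-1 and Mir181a-2: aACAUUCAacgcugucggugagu

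The 9 genes carried 6 different seeds. Within the sensory cluster, the seeds of miR-183 and miR-96 differed at 1 of 7 bases, those of miR-96 and miR-182 at 1, and those of miR-183 and miR-182 at 2. miR-204 and miR-211 had the same seed and the same base at 21 of 22 positions. The miR-181a seed was also carried by miR-181b, miR-181c and miR-181d. The miR-96 seed was also that of miR-1271-5p, and the miR-204 seed was also that of miR-7670-3p.

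Both Mir128 genes give the same main mature strand, and so do both Mir181a genes, so the paralogues can be told apart only outside that stretch. Their hairpins are shown because the paralogues gave different values on the arrays, with the mature strand in capitals.
Mir128-1: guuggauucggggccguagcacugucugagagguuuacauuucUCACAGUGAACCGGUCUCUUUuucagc
Mir128-2: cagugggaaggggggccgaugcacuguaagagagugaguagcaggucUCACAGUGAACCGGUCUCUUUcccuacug
Mir181a-1: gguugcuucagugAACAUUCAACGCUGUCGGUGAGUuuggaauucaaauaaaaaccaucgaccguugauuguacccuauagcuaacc
Mir181a-2: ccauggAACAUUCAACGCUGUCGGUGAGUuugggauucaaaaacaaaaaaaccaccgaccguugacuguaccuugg

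The Mir128 hairpins had 55 identical bases over 77 aligned columns (71.4%), and the Mir181a hairpins had 65 over 91 (71.4%). The Mir204 and Mir211 hairpins were 48.1% identical. The probe sequences were not used here, so how much of each probe set lies in a shared stretch is not known, and paralogue values are uncertain to that extent.

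The hairpins, 68 to 106 bases long, lie at 7 loci in RefSeq's GRCm38.p6. Mir183 (chr6:30169668-30169737), Mir96 (chr6:30169446-30169551) and Mir182 (chr6:30165918-30165992) lie on the minus strand inside the non-coding gene Mirc35hg, with 116 bases between Mir183 and Mir96 and 3453 between Mir96 and Mir182. Mir204 (chr19:22750605-22750672, plus strand) lies inside Trpm3, and Mir211 (chr7:64205806-64205911, plus strand) lies inside Trpm1. Mir128-1 (chr1:128202361-128202430, plus strand) lies inside R3hdm1, and Mir128-2 (chr9:112118636-112118711, minus strand) lies inside Arpp21. Each of these hosts runs on the strand of its hairpin. Mir181a-1 (chr1:137966455-137966541, plus strand) lies in no other annotated gene, 97 bases before Mir181b-1. Mir181a-2 (chr2:38852735-38852810, plus strand) lies opposite to Nr6a1 and on the strand of Nr6a1os, 1019 bases before Mir181b-2. The table used gives gene spans only, so exon or intron is not stated.

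The values are log2 signals as deposited, in which a difference of 1 is a 2-fold change, and signals of different probe sets are not compared. Array medians lay between 5.88 and 6.04 after the authors' normalization, and arrays correlated with each other at 0.971 to 0.991. By markers of neighbouring tissue some arrays stood apart. Muscle markers summed to 11.03 (log2) in control replicate 1, against 8.03 to 9.25 in the other 8 arrays, and lens markers summed to 13.81, 14.21 and 9.58 in control. Array weights in limma ran from 0.496 (1 μg replicate 1) to 1.88 (1 μg replicate 2). Without control replicate 1, in 10 μg against control, Mir204 was at -1.28, Mir181a-1 at -1.26, Mir128-1 at -0.79 and Mir182 at -0.61. Mir183 moved to -0.03, with -0.13 over all arrays. The methods call the 3 pools of a condition biological replicates, so p-values measure the spread between pools and not between single mice. Values run in the order control, 1 μg, 10 μg, with the 3 arrays of a group in replicate order, and each difference comes with its standard error (SE) and 95% interval from limma, fitted to all 9 arrays. The members were chosen with values of the 10 μg against control contrast known, so each member's value in that contrast is a description with no p of its own, and its counts of calls stand only beside the share over all probe sets. The other contrasts share arrays with it, since 1 μg against control uses the same control arrays and 10 μg against 1 μg uses the same 10 μg arrays.

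In eyes given 10 μg, the mean of each of the 9 precursors lay below control, at -0.09 to -1.21 on the log2 scale. For Mir96 the sign turned without control replicate 2 (0.03), and for Mir128-2 it turned without 10 μg replicate 2 (0.07). Mir204 and Mir181a-1 were the lowest relative to control, at 0.432-fold and 0.434-fold. Mir128-1 was next, at 0.586-fold. In eyes given 1 μg, 4 of the 9 lay below control, and Mir181a-1 and Mir204 had the lowest differences. No member passed an adjusted p of 0.05 (limma, Benjamini-Hochberg over 25341 named probe sets) in any contrast.

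**Figure D1:**
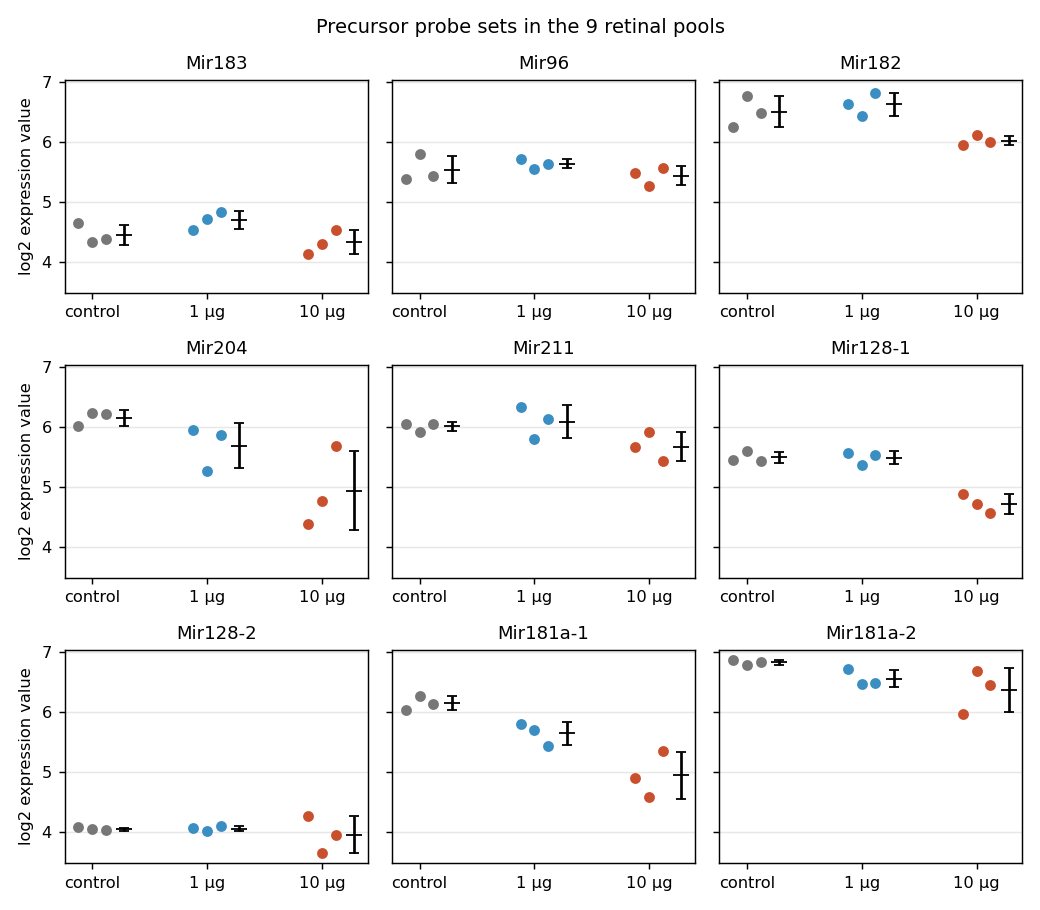
Deposited log2 value of each of the 9 precursors (1 panel a gene, y axis) in control, 1 μg and 10 μg arrays (x axis). Points are arrays, 3 a group, and the black bar beside them is the mean ± SD. Mir181a-1 lay at 6.04 to 6.27 in control, 5.43 to 5.81 at 1 μg and 4.58 to 5.36 at 10 μg, with no overlap between groups.

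Mir181a-1 was the member whose 3 groups were fully separated. miR-181a acts in inner retinal neurons and, outside the eye, tunes T cell receptor signalling. Mir181a-1 had 6.04, 6.27 and 6.14 in control arrays, 5.81, 5.70 and 5.43 at 1 μg, and 4.91, 4.58 and 5.36 at 10 μg. The order of the groups followed the dose, and every array of a higher dose was below every array of the lower one. Over all named probe sets, 2.45% lay wholly below control at 1 μg, and 9.44% lay wholly below 1 μg at 10 μg. Separation of all 3 groups was not counted over all probe sets, and the members were chosen with 10 μg against control known. Nothing is therefore read from the order. The means were 6.15 ± 0.114, 5.65 ± 0.194 and 4.95 ± 0.391 (SD, n = 3 each). The difference was -0.51 (SE 0.185, interval -0.93 to -0.09, adjusted p = 0.520) for 1 μg against control and -0.70 (interval -1.12 to -0.28, adjusted p = 0.414) for 10 μg against 1 μg. It was -1.20 (SE 0.185, interval -1.63 to -0.78) for 10 μg against control.

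Mir181a-2, the paralogue on chromosome 2, had 6.87, 6.78 and 6.84 in control arrays, 6.72, 6.47 and 6.49 at 1 μg, and 5.97, 6.68 and 6.45 at 10 μg. Both doses lay wholly below control and overlapped with each other. The difference was -0.27 (interval -0.64 to 0.09, adjusted p = 0.622) for 1 μg against control, -0.19 (interval -0.56 to 0.18, adjusted p = 0.670) for 10 μg against 1 μg, and -0.47 (SE 0.161, interval -0.83 to -0.10) for 10 μg against control. The lowest 10 μg value, 5.97, was that of replicate 1, and without it the difference was -0.27 for 10 μg against control and 0.01 for 10 μg against 1 μg.

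The Mir181b genes stand beside the Mir181a genes and carry their seed. Mir181b-1 had 9.63, 9.72 and 9.89 in control arrays, 9.81, 9.11 and 9.33 at 1 μg, and 8.49, 8.92 and 8.99 at 10 μg. Its 10 μg arrays lay below every array of both other groups, by -0.94 (SE 0.19) against control and by -0.62 (adjusted p = 0.421) against 1 μg. Mir181b-2 had 7.85, 7.72 and 7.69 in control arrays, 7.64, 7.61 and 7.61 at 1 μg, and 7.31, 7.40 and 7.40 at 10 μg. Its 3 groups did not overlap, with differences of -0.38 for 10 μg against control and -0.25 for 10 μg against 1 μg (adjusted p = 0.414). The genes of the remaining pair, Mir181c and Mir181d, lay at -0.07 and -0.05 in 10 μg against control, with overlapping groups. In 1 μg against control Mir181c lay at 0.10 with overlapping groups. Mir181d lay at -0.24 there (limma, adjusted p = 0.578), with every 1 μg array below every control array, as for 2.45% of all named probe sets.

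Mir204, the precursor of a microRNA needed for the differentiated state of the pigment epithelium, was the most variable member. It had 6.01, 6.24 and 6.21 in control arrays, 5.95, 5.26 and 5.86 at 1 μg, and 4.39, 4.77 and 5.68 at 10 μg. Every 1 μg and every 10 μg array lay below every control array, while the doses overlapped. The SD was 0.126 in control, 0.376 at 1 μg and 0.662 at 10 μg. The difference was -0.47 (SE 0.309, interval -1.17 to 0.24, adjusted p = 0.656) for 1 μg against control and -0.74 (interval -1.45 to -0.04, adjusted p = 0.474) for 10 μg against 1 μg. It was -1.21 (interval -1.91 to -0.51) for 10 μg against control, with -1.58 without 10 μg replicate 3 and -0.93 without 10 μg replicate 1. Leaving out 1 array gave -1.11 to -0.47 for 10 μg against 1 μg, at the same 10 μg replicates 3 and 1.

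Mir211, which carries the same seed, had 6.05, 5.92 and 6.05 in control arrays, 6.34, 5.80 and 6.14 at 1 μg, and 5.66, 5.92 and 5.44 at 10 μg. Its groups overlapped. The difference was 0.09 (SE 0.155, adjusted p = 0.883) for 1 μg against control, -0.42 (interval -0.77 to -0.07, adjusted p = 0.453) for 10 μg against 1 μg, and -0.33 (interval -0.69 to 0.02) for 10 μg against control.

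Trpm3 and Trpm1 encode cation channels, and Trpm1 is the transduction channel of ON bipolar cells. Trpm3, the host of Mir204, had 9.82, 9.98 and 9.85 in control arrays, 9.81, 9.56 and 9.65 at 1 μg, and 9.51, 9.73 and 9.59 at 10 μg. It lay at -0.27 (SE 0.0888) for 10 μg against control and at -0.06 for 10 μg against 1 μg. Trpm1, the host of Mir211, had 9.41, 9.40 and 9.46 in control arrays, 9.57, 9.30 and 9.41 at 1 μg, and 9.12, 9.24 and 9.21 at 10 μg. It lay at -0.23 (SE 0.0773) for 10 μg against control and at -0.23 (adjusted p = 0.427) for 10 μg against 1 μg. Both hosts were therefore below control at 10 μg by less than their hairpins were, on the log2 scale, and the difference between host and hairpin was not tested.

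Markers of the pigment epithelium were followed beside Mir204, since retinal pools can carry some of that tissue. All 10 markers were measured, with 7 above control and 2 below at 10 μg, a median of 0.16 and none past the test. Of all named probe sets, 44.3% lay below control there. Their summed level, as log2, was 11.21, 11.73 and 11.31 in control arrays, 11.22, 11.63 and 11.35 at 1 μg, and 11.25, 12.04 and 12.08 at 10 μg. Tyr lay in the dimmest 25% of all probe sets, named or not, with means of 4.26 at 10 μg and 4.34 in control, and the other 9 were above that level. Rpe65, the isomerase of the visual cycle, had 8.01, 9.01 and 8.83 at 10 μg, against 7.94, 8.19 and 7.85 in control. The sums of 10 μg replicates 2 and 3 were above every control sum, and Mir204 was at 4.77 and 5.68 in these 2 arrays, below every control array. That of 10 μg replicate 1, the array with the lowest Mir204 value, was above control replicate 1 but below control replicates 2 and 3. The sum is taken on the linear scale, so it weighs most on the brightest marker, Ttr, with means of 10.37 in control and 10.87 at 10 μg. Lens markers summed to 9.58 to 14.21 in control, 9.07 to 12.65 at 1 μg and 10.23 to 12.74 at 10 μg, and muscle markers to 8.10 to 11.03, 8.03 to 8.84 and 8.13 to 9.25 in the same order of groups. Their part in the values of the members was not tested. In bulk pools, fewer cells of a type and less RNA per cell cannot be told apart.

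**Figure D2:**
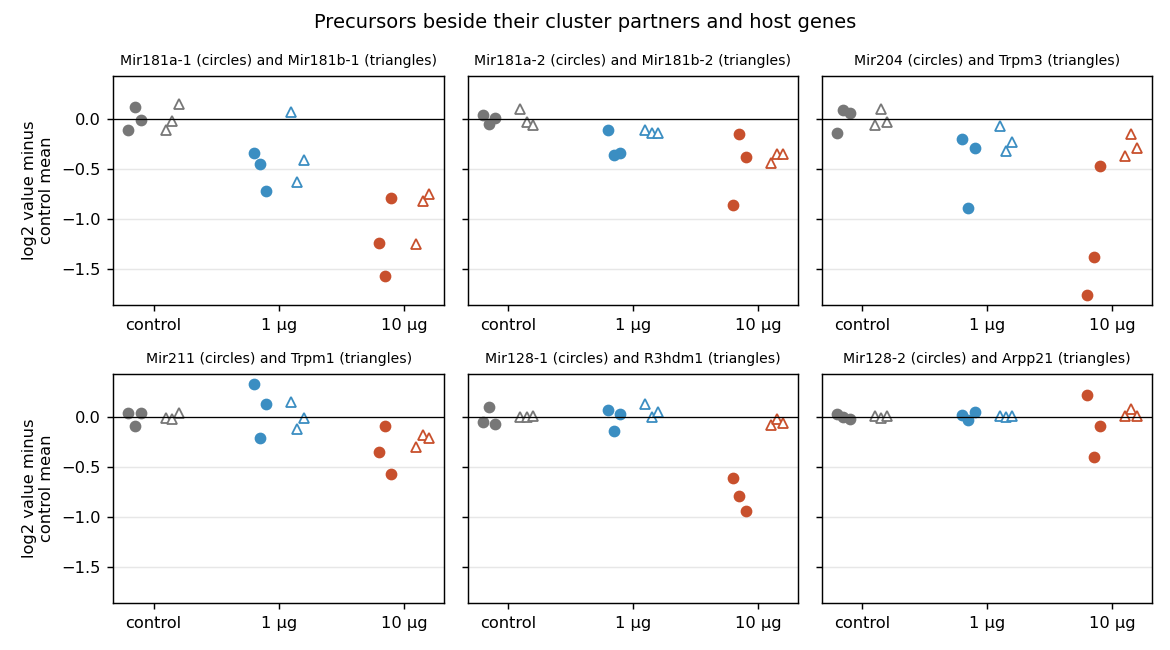
Log2 value minus the mean of the control arrays (y axis) for 6 precursors (circles) and the neighbouring precursor or host gene of each (triangles), in control, 1 μg and 10 μg arrays (x axis), 3 points a group. At 10 μg, Mir181b-1 averaged -0.94 beside -1.20 for Mir181a-1, and R3hdm1 averaged -0.06 beside -0.77 for Mir128-1.

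Of the 3 members lowest at 10 μg, Mir128-1 had the smallest SD there, 0.165. miR-128 is enriched in brain neurons, and in mice its loss makes neurons more excitable. Mir128-1 had 5.45, 5.60 and 5.43 in control arrays, 5.57, 5.36 and 5.53 at 1 μg, and 4.89, 4.71 and 4.56 at 10 μg. Control and 1 μg overlapped, and every 10 μg array lay below both. The difference was -0.01 (SE 0.0986, interval -0.23 to 0.22, adjusted p = 0.987) for 1 μg against control. It was -0.76 (interval -0.99 to -0.54, adjusted p = 0.143) for 10 μg against 1 μg, a ratio of 0.589, and -0.77 (interval -1.0 to -0.55) for 10 μg against control.

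Mir128-2 had 4.08, 4.05 and 4.03 in control arrays, 4.07, 4.02 and 4.10 at 1 μg, and 4.27, 3.65 and 3.96 at 10 μg. The 10 μg arrays lay on both sides of the others, and the signal was in the dimmest 25% of all probe sets, named or not, under 4.71. The difference was 0.01 (adjusted p = 0.982) for 1 μg against control, -0.10 (interval -0.40 to 0.20, adjusted p = 0.794) for 10 μg against 1 μg, and -0.09 (interval -0.39 to 0.21) for 10 μg against control. R3hdm1, the host of Mir128-1, had 9.89, 9.89 and 9.90 in control arrays, 10.02, 9.89 and 9.94 at 1 μg, and 9.81, 9.87 and 9.83 at 10 μg, a difference of -0.06 for 10 μg against control. Arpp21, the host of Mir128-2, lay at 0.03 in that contrast, with 5.47 to 5.54 at 10 μg and 5.45 to 5.47 in control.

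The paralogues were then set against each other within each array, by an exact two-sided permutation test over arrays of the log2 ratio of their signals, in which 3 against 3 arrays cannot give a p below 0.1. With that floor none of the 8 such tests could pass after adjustment, so their p-values decide nothing and the changes are read as descriptions. The tested contrasts also share arrays with 10 μg against control, and the signal of Mir128-2 was dim. The log2 ratio of Mir128-1 to Mir128-2 was 0.76 ± 0.261 at 10 μg and 1.42 ± 0.083 at 1 μg (SD, n = 3 each, exact p = 0.1, adjusted p = 0.4), a change of -0.66. For Mir181a-1 against Mir181a-2 the change was -0.51 (exact permutation p = 0.2, adjusted p = 0.4) and for Mir204 against Mir211 it was -0.32 (exact permutation p = 0.5, adjusted p = 0.667). In 1 μg against control the ratio of Mir204 to Mir211 changed by -0.55 (exact permutation p = 0.1, adjusted p = 0.4), that of Mir181a-1 to Mir181a-2 by -0.23 (exact permutation p = 0.2) and that of Mir128-1 to Mir128-2 by -0.02 (exact permutation p = 0.8). Between the neighbours Mir181a-1 and Mir181b-1 the ratio changed by -0.08 in 10 μg against 1 μg (exact permutation p = 0.8) and by -0.18 in 1 μg against control (exact permutation p = 0.5). In 10 μg against control, given with no test, the ratio changed by -0.68 for the Mir128 genes, -0.74 for the Mir181a genes, -0.88 for Mir204 and Mir211 and -0.26 for Mir181a-1 and Mir181b-1.

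Of the 3 genes of the sensory cluster, Mir182 was the one whose 10 μg arrays lay wholly below both other groups, and differences between these genes were not tested. In mice the loss of the cluster leads to degeneration of photoreceptors, and a seed mutation of Mir96 alone causes hearing loss. Mir182 had 6.25, 6.76 and 6.49 in control arrays, 6.63, 6.44 and 6.82 at 1 μg, and 5.95, 6.11 and 6.00 at 10 μg. The highest 10 μg value, 6.11, was under the lowest control value, 6.25. The difference was 0.13 (SE 0.138, adjusted p = 0.788) for 1 μg against control, -0.61 (interval -0.92 to -0.29, adjusted p = 0.414) for 10 μg against 1 μg, and -0.48 (interval -0.79 to -0.16) for 10 μg against control.

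Mir183 had 4.65, 4.33 and 4.38 in control arrays, 4.53, 4.71 and 4.84 at 1 μg, and 4.14, 4.30 and 4.54 at 10 μg, also in the dimmest 25% of probe sets. Its groups overlapped, with differences of 0.24 (interval -0.06 to 0.54, adjusted p = 0.604) for 1 μg against control, -0.37 (interval -0.66 to -0.07, adjusted p = 0.442) for 10 μg against 1 μg, and -0.13 (interval -0.42 to 0.17) for 10 μg against control. Mir96 had 5.38, 5.80 and 5.43 in control arrays, 5.72, 5.55 and 5.64 at 1 μg, and 5.48, 5.27 and 5.57 at 10 μg. Its groups overlapped too, with differences of 0.10 (adjusted p = 0.813) for 1 μg against control, -0.20 (interval -0.48 to 0.08, adjusted p = 0.572) for 10 μg against 1 μg, and -0.10 (interval -0.38 to 0.18) for 10 μg against control. Rods use the cluster, and of 4 listed rod markers 3 were measured. In 10 μg against control Gnat1 lay at 0.01, Nrl at -0.02 and Pde6b at -0.11, and none passed the test. Pde6b had 12.37, 12.31 and 12.25 at 10 μg, against 12.38, 12.47 and 12.41 in control, so its groups did not overlap.

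Markers of the other retinal cell types were followed beside the members, and none passed the test at 10 μg against control. Of all 25341 named probe sets in that contrast, 44.3% had a mean below control. Every 10 μg array was above every control array for 3624 of them, and below for 8.51%. Ganglion cell markers lay above control for 4 of 4, with Sncg at 0.45, Pou4f1 at 0.35, Thy1 at 0.29 and Rbpms at 0.03, and the groups of the first 3 did not overlap. Their summed level, as log2, was 10.93 to 11.00 at 10 μg and 10.59 to 10.74 in control. Müller glia markers lay above control for 3 of 3, with Slc1a3 at 0.31. Of 4 listed bipolar cell markers 3 were measured, and all 3 lay below control. Trpm1 was at -0.23, Grm6 at -0.22 and Prkca at -0.03, the last with overlapping groups. The 3 summed to 10.84 to 10.91 at 10 μg and 10.98 to 11.08 in control. Of 3 listed amacrine cell markers 2 were measured, with Gad1 at -0.07 and Tfap2a at 0.07, both with overlapping groups. Of the cone markers, Arr3 lay at -0.41, with 9.65 to 9.87 at 10 μg and 10.09 to 10.25 in control, while Opn1mw lay at 0.13 and Gnat2 at -0.01. The part of these cell types in the values of the members was not tested.

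**Figure D3:**
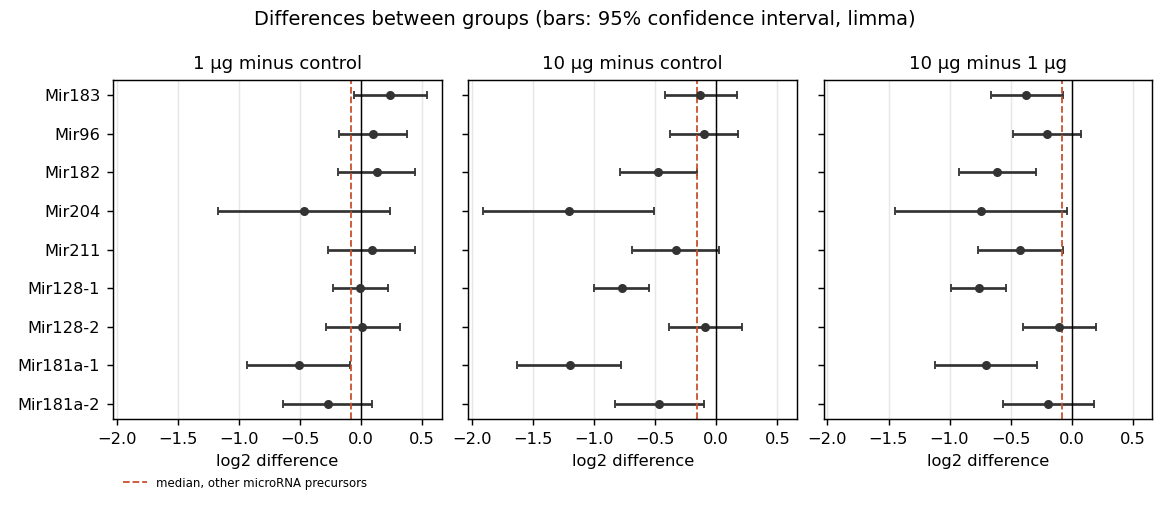
Log2 difference of each precursor (x axis) for 1 μg minus control, 10 μg minus control and 10 μg minus 1 μg (1 panel each), with the 95% interval from limma as the bar and the median of the other microRNA precursors as the dashed line. For Mir128-1 the interval was -1.0 to -0.55 in 10 μg against control and -0.23 to 0.22 in 1 μg against control.

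Counts over the members were read against all named probe sets. In 10 μg against control, 0 of 9 members passed an adjusted p of 0.05, beside 0.0197% of all probe sets, and 5 of 9 had an unadjusted p under 0.05, beside 17.4%. By a rule of a fold change over 2 with an unadjusted p under 0.05, 2 of 9 were lower (Mir204 and Mir181a-1), beside 0.107%. Every 10 μg array lay below every control array for 5 of 9 (Mir182, Mir204, Mir128-1, Mir181a-1 and Mir181a-2), beside 8.51%. Nothing is read from these counts, since the members were selected on this contrast.

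In 1 μg against control, 0 of 9 passed the adjusted p (limma, 0% of all probe sets) and 1 of 9 had an unadjusted p under 0.05, beside 9.04%, which is near the background. The fold rule called 0 of 9, beside 0.0395%, and the arrays of 3 of 9 (Mir204, Mir181a-1 and Mir181a-2) lay wholly below control, beside 2.45%. In 10 μg against 1 μg, 0 of 9 passed the adjusted p (limma, 0%) and 6 of 9 had an unadjusted p under 0.05, beside 10.4%. The fold rule called 0 of 9 (0%), and the arrays of 3 of 9 (Mir182, Mir128-1 and Mir181a-1) lay wholly below those at 1 μg, beside 9.44%. No excess is read from the counts of either contrast, since each shares arrays with 10 μg against control.

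The median log2 difference of the members was 0.01 in 1 μg against control, -0.47 in 10 μg against control and -0.42 in 10 μg against 1 μg. Over the 506 probe sets of microRNA precursors it was -0.08, -0.16 and -0.08 in the same order, and over all named probe sets 0.04, 0.02 and -0.01. At 10 μg, 72.1% of the precursor probe sets lay below control, against 44.3% of all named probe sets, and for 29.2% of them every 10 μg array lay below every control array. None of the 506 passed the adjusted p in limma, and 159 had an unadjusted p under 0.05, beside 17.4% of all named probe sets. Ranked by that difference from the lowest, Mir204 was at 4 and Mir181a-1 at 5 of 506, Mir128-1 at 32, Mir182 at 86, Mir181a-2 at 93 and Mir211 at 149, while Mir183, Mir96 and Mir128-2 lay at 281 to 308. The members thus ran from near the lowest end of all precursors to past their middle. The median SE was 0.145 for precursor probe sets and 0.093 for all named probe sets.

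**Figure D4:**
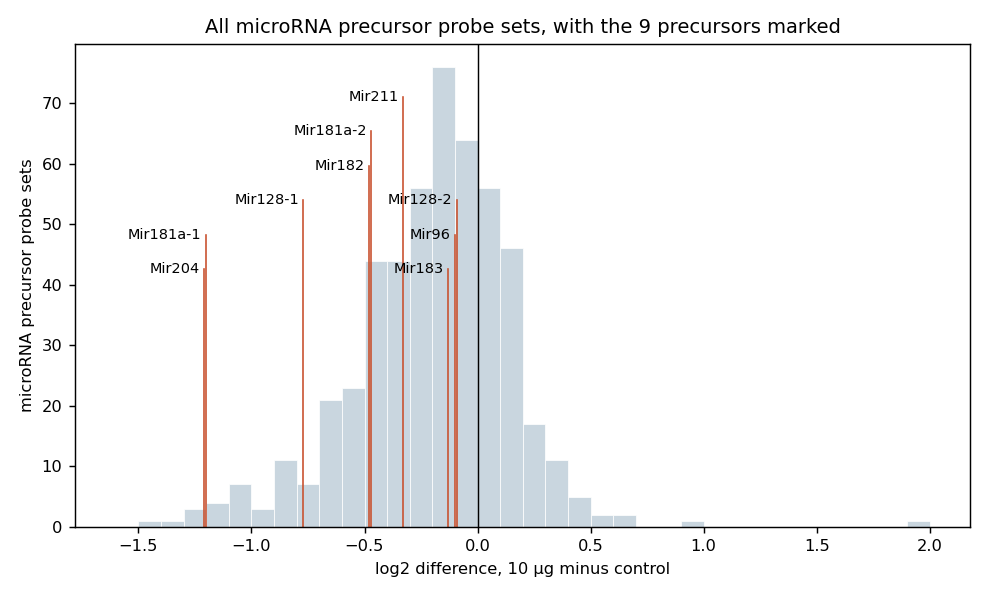
Histogram of the log2 difference of 10 μg minus control (x axis) over the 506 microRNA precursor probe sets (y axis, number of probe sets), with a line at the value of each of the 9 members, whose height carries no value. The median was -0.16, and Mir204 and Mir181a-1 lay at -1.21 and -1.20.

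Of 14 other listed precursors of neural microRNAs, 13 were measured, and Mir124a-1 was not analysed here. At 10 μg, 12 of 13 lay below control, beside 72.1% of all precursor probe sets and 44.3% of all named ones. Mir137 lay above control at 0.13, and the 13 had a median of -0.17 with none past the test. Mir124a-3, a gene of the most abundant neuronal microRNA, lay at -0.41 and Mir129-2 at -0.30, and every 10 μg array of both was below control. Such separation held for 29.2% of all precursor probe sets and 8.51% of all named ones. Signals were dim, with mean levels at percentile 6.79 of named probe sets for Mir124a-3, 5.26 for Mir129-2 and 0.45 for Mir137. In 1 μg against control the median was -0.22, and none passed the test. There 10 of 13 lay below control, beside 67% of all precursor probe sets and 37.1% of all named ones. In 10 μg against 1 μg the median was -0.06.

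The genes that make and load microRNAs were followed because all members pass through them. Of 12 listed, 11 were measured, and Dgcr8 was not analysed here. At 10 μg, 8 lay below and 3 above control, beside 44.3% of all named probe sets below. Their median was -0.08, and none passed the test. Drosha, which cuts the hairpin out, lay at 0.01, Xpo5, which exports it, at 0.16, Dicer1 at -0.04 and Ago2 at 0.04. The RNA helicases Ddx5 and Ddx17, which assist Drosha, lay at -0.37 and -0.16. Ddx5 had 12.29, 12.14 and 12.02 at 10 μg, against 12.55, 12.52 and 12.50 in control, so its groups did not overlap.

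Of the messenger RNAs known as targets, all 4 listed were measured and none passed the test in any contrast. Slc1a1, a glutamate transporter targeted by the sensory cluster in mouse retina, had 8.90, 9.09 and 9.15 at 10 μg, against 8.69, 8.93 and 8.81 in control, a difference of 0.24 with overlapping groups. Adcy6, an adenylyl cyclase targeted by miR-96 and miR-182, lay at -0.11, with every 10 μg array below every control array. Meis2, a homeobox factor targeted by miR-204 in medaka fish, lay at 0.11, with every 10 μg array above every control array. Bmi1, a Polycomb protein targeted by miR-128 in human glioma cells, lay at -0.01 with overlapping groups. Of the 25341 named probe sets, 8.51% lay wholly below control and 3624 wholly above it.

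For the 3 members with the widest range, the probe sets most like them over the 9 arrays were found by Pearson's r among 23520 single-gene probe sets, as a description. For Mir204 they were Nme8 (r = 0.973), Pkd1l1 (0.948) and 4930467K11Rik (0.946). For Mir181a-1 they were Hnrnpa0 (0.967), Rtp2 (0.957) and Mir300 (0.954). For Mir128-1 they were 2 probe sets of Syne1 (0.972 and 0.966) and Fryl (0.965). The ranges of these probe sets differed widely from those of the members, since Nme8 varied by 0.15 over the arrays and Mir204 by 1.86, and the 9 arrays share their groups.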

How the data were processed

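Retinal total RNA, in pools, was measured on 9 Mouse Gene ST arrays (Affymetrix), 3 per group. The authors deposited log2 signals, made by RMA in Affymetrix Expression Console 1.1 (background correction, quantile normalization and summary to probe sets, which narrows differences between arrays). The genome build of the probe sets is not given in the sources used here. Of 41345 probe sets, 25341 carried a gene name in the platform annotation (23521 with 1 gene, 1820 with several, none of which named a member), and 16004 without a name were left out. The control arrays were compared with each dose, and the doses with each other, by a linear model (limma 3.58.1, run under R 4.3.3) that held the 9 arrays together and had group as its only term, and p-values were adjusted by Benjamini-Hochberg across every named probe set. The steps were tested on simulated data. Members, host genes, processing genes, targets and markers were listed by name, and all were chosen with earlier results of these data known. The genes named by likeness were the 3 single-gene probe sets with the highest r to each of the 3 members with the widest range. The arrays give signals and not counts, and having 3 pools per group limits the precision. Alternatives covered centring, cyclic loess, the variance model, array weights, a replicate block, the set of probe sets tested and leaving out each array.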

Additional observations from a re-analysis of the deposited data

How the results depend on the processing

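For 10 μg against control, the count of members past the adjusted p of 0.05 was 0, and it became 2 (Mir128-1 and Mir181a-1) with an intensity trend, median centring, cyclic loess or dim probe sets left out. Leaving out 1 array gave 0 to 3, with 2 (the same genes) without 1 μg replicate 1 or 2, and 3 (Mir204 as well) without 10 μg replicate 3. The cause was not tested. The members were chosen with this contrast known, so no member is called changed from these counts. Over all named probe sets that count was 5, and it was 494 with the trend, 288 with median centring, 120 with cyclic loess, 192 without dim probe sets, 178, 249 and 328 without those arrays, and 0 to 6 in each other setting. In the other contrasts no member passed in any setting. The members' median difference ran from -0.04 to 0.06 for 1 μg against control, from -0.52 to -0.33 for 10 μg against control and from -0.61 to -0.38 for 10 μg against 1 μg. Single members changed sign or reached 0. In 1 μg against control, Mir211 was -0.02 with array weights and, leaving out 1 array, -0.04 to 0.23, Mir128-1 -0.05 to 0.06 and Mir128-2 0 to 0.03. Mir182 ran there from 0 (without control replicate 1) to 0.26. In 10 μg against 1 μg, Mir181a-2 was -0.35 to 0.01 and Mir128-2 -0.26 to 0.05. In 10 μg against control, Mir96 reached 0.03 without control replicate 2 and Mir128-2 reached 0.07 without 10 μg replicate 2. Arrays of 1 number do not pair (deviations correlated at -0.2 to 0.13), and the replicate block gave 0 members past the threshold in each contrast and a median of -0.47 for 10 μg against control. Each member has 1 probe set, so choosing the brightest per gene changes nothing for the members. For hosts, partners, processing genes, targets and markers the brightest single-gene probe set was used, and other choices were not tried.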
